A study of Solanum lycopersicum with 36 samples.

Results

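The genes described here rose late in wild type tomato leaves. They kept their 0 h level at 3 h and stood far above it at 24 h, in each of 2 wild type sets. On the scale log2(group mean + 1), a member had to lie within 0.5 of its 0 h level at 3 h in both sets and to reach a mean of at least 50 normalised reads at 24 h in both. Of 29285 genes in the deposited table, 7416 met these conditions. The 150 with the highest score were taken, the score being the smaller of the 2 rises between 0 h and 24 h. The wild type libraries therefore chose the members, and their wild type values are given as a description with no test. The libraries of the 2 altered lines took no part in the choice, so the tests compared these. The spread in each test was estimated over all groups of the fit, wild types included.

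The third and the fourth leaf of the dwarf cultivar Micro-Tom were sampled at 0, 3 and 24 h from the line SGT2ox and its own wild type in a first experiment, and from the line SGT1ami and another wild type set in a second, with 3 libraries of poly(A) RNA in each of the 12 groups. The names are read here as overexpression of SGT2 and an artificial microRNA against SGT1, sterol glycosyltransferases that attach a sugar to membrane sterols. How many transformants a line stands for is not given in the labels. Plants were a month old, and the protocol moved part of them to a chamber at 4°C, but no library carries a temperature in its labels and none is marked as a control of the same hour. A change from 0 h is therefore a change with time. Triplicates are called biologically independent in the labels, and whether their spread covers differences between plants was not tested.

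Plants of warm origin such as tomato are sensitive to chilling. In plants studied for cold responses, transcription factors of the CBF family are known to be induced within hours, and their targets and many metabolic genes follow later, so that genes are commonly sorted into early and late groups. Glycosylated sterols are lipids of the plasma membrane, which is known to stiffen in the cold. Neither the deposited table nor the reference gene table pairs the Solyc identifiers with gene names (0 of 29285 matched its 41476 entries). The members are therefore given by identifier, without names or functions, and no sequence is printed. For the same reason no marker gene of leaf or of any other tissue could be looked up, and the labelled tissue was not checked.

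The libraries held 36602841 to 43742623 reads. Identifiers remembered for the targeted genes, which no table used here pairs with those names, were read to check the labels. Solyc09g061860, noted for SGT2, averaged 26662 ± 248, 54155 ± 512 and 44063 ± 467 normalised reads at 0, 3 and 24 h in SGT2ox, against 994.9 ± 59.4, 1624 ± 22.1 and 1372 ± 18.8 in its wild type (SD, n = 3). Solyc06g007980, noted for SGT1, averaged 2435 ± 69.7 and 2373 ± 95.1 at 0 h and 3 h in SGT1ami, against 7845 ± 112 and 5948 ± 198 in its wild type (SD, n = 3). At 24 h it averaged 6173 ± 51.3 in the libraries labelled SGT1ami and 6685 ± 214 in the wild type (SD, n = 3). At 24 h this identifier thus stood near its wild type level in the libraries of that line, though below it without overlap. Whether their label holds is in doubt, and the reason for this level was not tested. They are named here by label alone, as the libraries labelled SGT1ami at 24 h. Every direction drawn from them carries that doubt, and a comparison of 3 h with 0 h is the one available without them.

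In the wild types the members gained a median of 3.31 on the log2 scale by 24 h in the wild type of SGT2ox (2.37 to 11.39) and 3.58 in that of SGT1ami (2.38 to 9.74). At 3 h their changes ran over the whole window that the rule allowed, from -0.49 to 0.49 and from -0.49 to 0.50, with medians of 0.05 and -0.03. Most members were already expressed at 0 h. By the larger of both wild type 0 h means, 100 members stood at 100 or more normalised reads, 37 between 10 and 100, 11 between 1 and 10, and 2 under 1. The tests below took genes that reached 10 normalised reads in at least 3 libraries of an experiment. Among the 12 libraries of 0 h and 3 h alone, 134 members did so in the SGT2ox experiment and 142 in that of SGT1ami. The other 16 and 8 passed only through 24 h libraries, where they were chosen to be high. One member was at 0 in all 24 libraries of 0 h and 3 h. The rises of the wild types differed in size, with 41 members more than 1 apart on the log2 scale, 28 of them larger in the wild type of SGT1ami and 13 larger in that of SGT2ox.

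**Figure D1:**
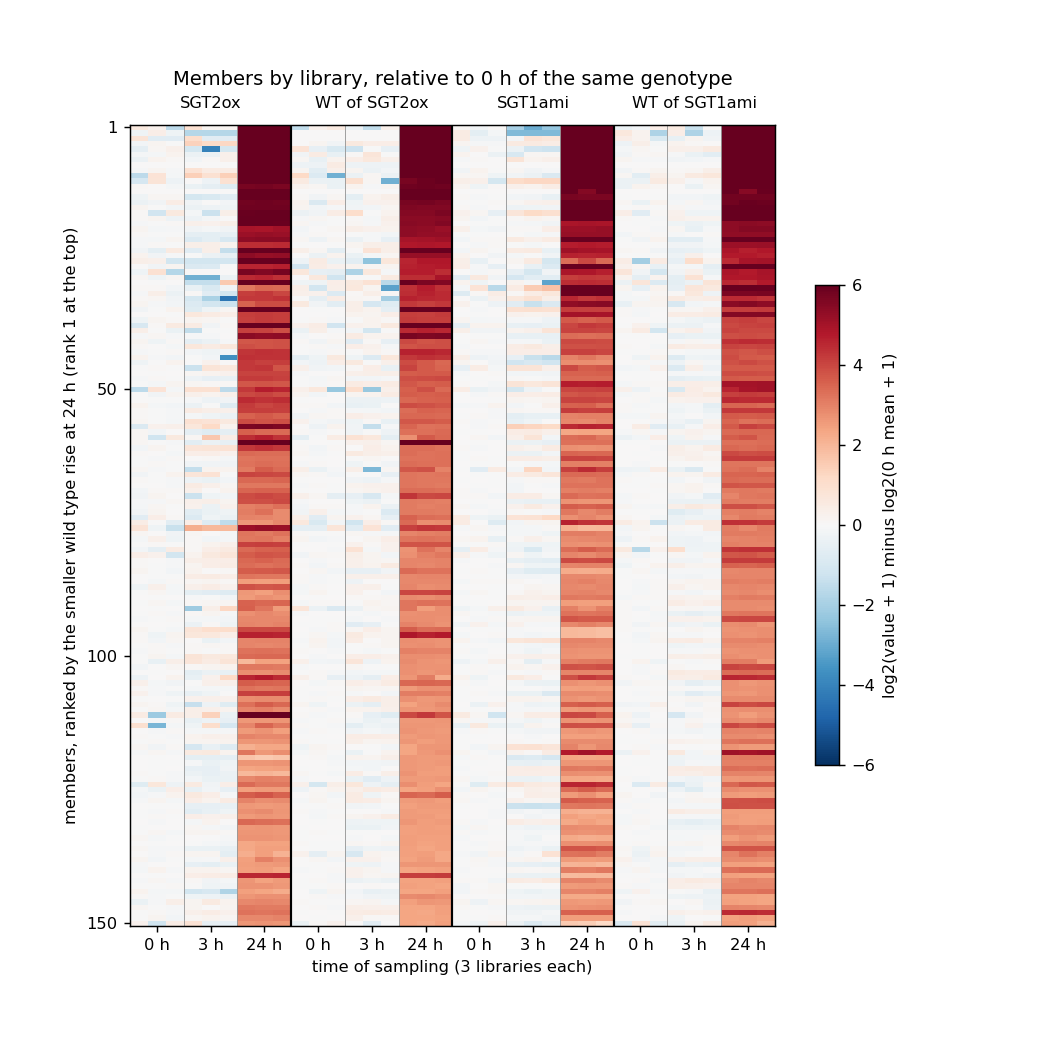
Each row is 1 of the 150 members, ordered by score, and each column 1 of 36 libraries in blocks of 3 by genotype and time. Colour gives log2(value + 1) minus log2(0 h mean + 1) of the same genotype, held at 6 and -6. The 24 h blocks are red in every row of all 4 genotypes, the block of SGT1ami being the libraries so labelled, while 0 h and 3 h stay near white apart from scattered rows.

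The highest score belonged to Solyc04g064880. In the wild type of SGT2ox it measured 1605, 1579 and 1606 normalised reads at 24 h, against 0, 2.43 and 3.05 at 0 h. In the wild type of SGT1ami it measured 5044, 5014 and 5040 at 24 h, against 4.72, 5.57 and 8.78 at 0 h. Every 24 h library lay far above every 0 h library. Solyc01g109140 came second by score. The wild type of SGT2ox held no read of it in any of the 6 libraries of 0 h and 3 h and reached 427.3, 411.6 and 438.3 at 24 h. In the wild type of SGT1ami it measured 1749, 1813 and 1689 at 24 h, against 4.72, 3.18 and 0 at 0 h. At the other end of the list, the members ranked 149 and 150, Solyc03g095710 and Solyc09g098350, had a score of 2.37 each. The first genes outside it, Solyc07g042510 and Solyc06g082120, had 2.37 and 2.36. Solyc09g098350 averaged 103.8 and 84.1 normalised reads at 24 h in the wild types of SGT2ox and SGT1ami, and Solyc07g042510 averaged 179.3 and 167.9. The border of the list therefore separates genes of nearly equal score.

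A few members held a large share of the list's reads. Reads were not divided by gene length, so the following are read numbers and not levels to be compared between genes. For Solyc04g074480 the wild type of SGT2ox measured 70696, 68637 and 71999 normalised reads at 24 h, against 4006, 3961 and 3870 at 0 h. In the wild type of SGT1ami it measured 217709, 215021 and 218680 at 24 h, against 5091, 4486 and 4818 at 0 h. For Solyc03g117950 the wild type of SGT2ox measured 56746, 58093 and 59030 at 24 h, and 163139, 162622 and 160468 were found in that of SGT1ami. At 0 h it had 4401, 4728 and 4650 in the first and 10762, 10614 and 11139.6 in the second. For both genes the 24 h libraries of the SGT1ami experiment were the highest of all wild type libraries. In each of the 4 genotypes, 11 or 12 members held 50% of the members' normalised reads at 24 h.

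The share of all normalised reads that fell in the members shows the late rise in each library. In SGT2ox it was 0.222% ± 0.00400, 0.180% ± 0.00490 and 2.71% ± 0.0254 at 0, 3 and 24 h, and in its wild type 0.241% ± 0.00270, 0.183% ± 0.0002 and 2.48% ± 0.0143 (SD, n = 3 each). The SGT1ami libraries had 0.501% ± 0.0002 and 0.404% ± 0.00340 at 0 h and 3 h, and those labelled SGT1ami at 24 h had 3.73% ± 0.0069. The wild type of SGT1ami had 0.453% ± 0.0036, 0.376% ± 0.00140 and 3.98% ± 0.00450 (SD, n = 3 each). In all 4 genotypes the share was lower at 3 h than at 0 h and far higher at 24 h. The total of normalised reads was larger at 3 h than at 0 h in all 4. For replicate 1 it went from 32651573 to 45757335 in the wild type of SGT2ox and from 32389716 to 37505742 in SGT1ami. A lower share at 3 h thus does not by itself mean fewer normalised reads in the members. In bulk leaf RNA, a change in the cells that express a gene and a change in RNA per cell cannot be told apart.

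**Figure D2:**
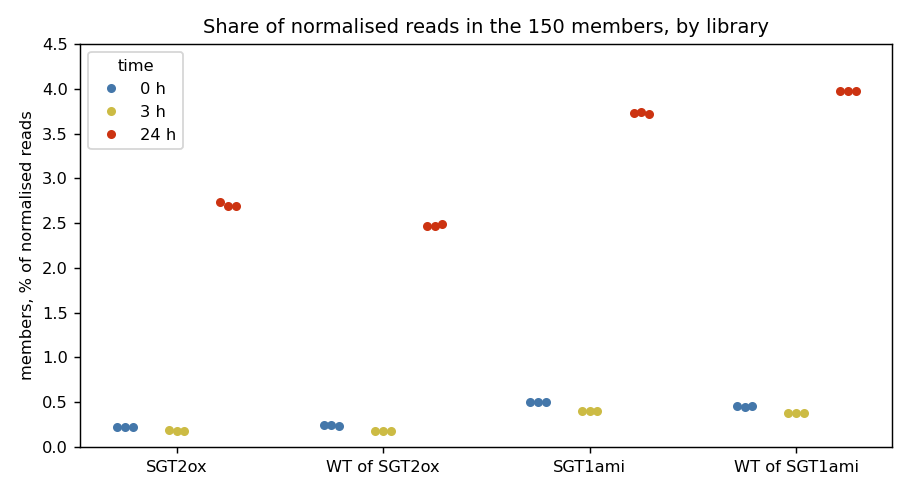
Points are libraries, with genotype along the horizontal axis and the share of normalised reads in the 150 members, in percent, on the vertical axis. At 24 h the libraries reach 2.47% to 2.73% for SGT2ox and its wild type and 3.72% to 3.98% for the SGT1ami set, and at 0 h and 3 h all lie at 0.501% or below.

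Did the late rise appear in SGT2ox leaves, which the rule did not use? All 134 members that passed the filter without 24 h libraries rose between 0 h and 24 h in SGT2ox, where 40.3% of the 22399 genes tested were called higher (limma, adjusted p under 0.05 over all genes). Their median rise was 3.47 on the log2 scale of log2(value + 1), from 1.66 to 9.02, beside a median of -0.02 over all genes tested. The 16 others were also called higher, as their passing the filter had favoured. Over all 150 members the rise reached 4-fold for 148, 8-fold for 104 and 32-fold for 33, where 11.7%, 6.72% and 1.99% of genes tested were called that much higher. These counts include the 16, which were chosen to be high at 24 h, so nothing is read from them beside those shares. From 3 h to 24 h the 134 rose as well, with a median of 3.33 and a range of 1.60 to 9.97, where 40.1% of genes tested were called higher. For each of the 134 members all 3 SGT2ox libraries of 24 h lay above all 3 of 0 h, where 41.1% of genes tested did. Library totals moved the median of all genes by -0.20 on the log2 scale in this comparison, and the median of all 150 members relative to it was 3.61.

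Among members in SGT2ox the span was wide. Solyc09g011520 measured 1.73, 0 and 0 normalised reads at 0 h, 2.31, 0 and 0 at 3 h, and 1889, 2018 and 1926 at 24 h. It was silent or nearly so in every earlier SGT2ox library. The 2 reads at 0 h give a ratio of 3393 with a 95% exact counting interval of 939 to 28025, and its fitted log2 change of 10.44 depends on the pseudocount. Solyc04g064880 measured 1925, 1779 and 1996 at 24 h, against 3.47, 2.53 and 0 at 0 h, a fitted log2 change of 9.57 that was 8.90 without SGT2ox replicate 3 of 0 h. Both genes passed the filter through 24 h libraries alone, so no p-value is given, and the size of the rise rests on few reads at 0 h.

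The smallest rise in SGT2ox was that of Solyc03g117680, with 3718, 3294 and 3606 normalised reads at 24 h, against 1126, 1105 and 1135 at 0 h. This was a log2 change of 1.66 (SE 0.06, adjusted p = 2e-19, limma). Its 0 h libraries in SGT2ox lay above those of the wild type, which held 533.8, 559.2 and 493.4. Solyc10g081850 had the next smallest rise, with 2261, 2405 and 2249 at 24 h, against 618.9, 587.7 and 562.4 at 0 h (log2 change 1.96, SE 0.08, adjusted p = 5e-18, limma). Counted from 3 h, the smallest rise was that of Solyc01g006650, which measured 154.1, 210.4 and 213.6 at 24 h, against 65.9, 55.1 and 66.9 at 3 h (log2 change 1.60, SE 0.24, adjusted p = 7.5e-07, limma). Even these members had no overlap between the later and the earlier libraries. Solyc09g091670 had one of the largest rises from 3 h, with 3941, 4023 and 4049 at 24 h, against 6.93, 0 and 7.04 at 3 h. Its log2 change of 9.97 (SE 0.51, adjusted p = 4.7e-16, limma) became 8.97 without SGT2ox replicate 2 of 3 h.

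The members were high in the 24 h libraries of the other experiment too. All 142 that passed the filter without 24 h libraries were higher in the libraries labelled SGT1ami at 24 h than in SGT1ami at 0 h, where 42.7% of 22286 genes tested were called higher (limma, adjusted p under 0.05). Their median log2 change was 3.21, from 1.44 to 8.89, beside 0.02 over all genes tested. The 8 others were also called higher. Over all 150 members 146 reached 4-fold, 90 reached 8-fold and 26 reached 32-fold, where 12.5%, 7.09% and 2.12% of genes tested were called that much higher. The 8 are part of these counts, so nothing is read from them beside those shares. Against 3 h the median of the 142 was 3.25, from 1.84 to 9.80, all of them being called, where 42.2% of genes tested were called higher. None of the 142 had libraries that overlapped between 24 h and 0 h, where 43.0% of genes tested had all 3 of 24 h above all 3 of 0 h. Library totals moved the median of all genes by -0.54 here, and the median of all 150 members relative to it was 3.30. Since the label of the 24 h libraries is in doubt, these values describe those libraries and may not belong to the line.

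Solyc09g091670 measured 22312, 22721 and 22385 normalised reads in the libraries labelled SGT1ami at 24 h, against 38.6, 56.3 and 45.5 at 0 h, a log2 change of 8.89 (SE 0.16, adjusted p = 1.1e-27, limma). Solyc09g011520 measured 2383, 2435 and 2476 there, against 6.31, 3.22 and 3.25 at 0 h, a fitted log2 change of 8.90 with no p-value given, since it passed the filter through 24 h libraries alone. Both were also among the largest rises in SGT2ox. Solyc01g109140 stood at 2249, 1967 and 1979 in those labelled SGT1ami at 24 h and had no read in the 3 libraries of SGT1ami at 3 h. Against a floor of 3 reads over the group it was at least 2244-fold higher. The smallest rise from 0 h was that of Solyc09g098350, the last member by score, with 85.7, 81.8 and 67.7 against 26.0, 24.1 and 35.8 (log2 change 1.44, SE 0.34, adjusted p = 0.00041, limma). Solyc07g008600.1 measured 2538, 2452 and 2311 against 603.8, 668.8 and 697.7 (log2 change 1.89, SE 0.06, adjusted p = 4.1e-21, limma). The smallest rises from 3 h were those of Solyc04g080690 and Solyc01g009690. The first measured 277.7, 318.8 and 274.6 at 24 h, against 73.2, 76.4 and 93.3 at 3 h (log2 change 1.84, SE 0.19, adjusted p = 1.2e-09, limma), and the second 5795, 5729 and 5370 against 1437, 1488 and 1531 (log2 change 1.92, SE 0.04, adjusted p = 2.9e-25, limma).

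Genes that had already risen by 3 h in the wild types give a contrast to the members. A comparison list held 196 genes that gained at least 1 on the log2 scale by 3 h in both wild types and met the same 24 h minimum and lowest score. At 3 h 176 of them were called higher in SGT2ox and 190 in SGT1ami, where 33.2% and 30.5% of genes tested were, with median changes of 1.83 and 2.13. From 3 h to 24 h their medians were 2.13 in SGT2ox and 2.33 in the libraries labelled SGT1ami. Among the 150 late members these medians were 3.45 and 3.32. The lists were chosen by the time of their rise with the same lowest score, so the order of these medians is largely set by the choice, and no test of the lists was made.

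At 3 h most members of both lines stayed near their 0 h level, as the rule had required of the wild types. In SGT2ox 114 of 150 members stayed within 0.5 of 0 h on the log2 scale of group means, where 53.3% of the 22399 genes tested did. Another 18 were above and 18 below that window. By limma 40 members were called higher, where 33.2% of genes tested were, and 38 lower, where 31.6% were, with a median change of 0.00. In SGT1ami 120 members stayed within 0.5, where 60.5% of 22286 genes tested did, with 15 above and 15 below. There 38 were called higher, where 30.5% of genes tested were, and 42 lower, where 31.7% were, with a median of -0.03. Few changes were large, with 3 members at least 2-fold higher and 6 at least 2-fold lower in SGT2ox, where 11.2% and 11.1% of genes tested were, and 4 and 5 in SGT1ami, where 10% and 5.14% were. In both lines at once 95 members stayed within 0.5 and 11 left it, 9 of these in the same direction. No share over all genes was taken for both lines at once, so nothing is read from these counts.

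How many rose and how many fell at 3 h changed with the scaling. Scaled by library totals, the median of all genes moved by -0.33 in SGT2ox and -0.20 in SGT1ami on the log2 scale. The calls then split into 9 higher and 82 lower members in SGT2ox and 23 higher and 73 lower in SGT1ami. Relative to the median of all genes the members' median was 0.02 and -0.01 under that scaling, and 0.00 and -0.01 under the deposited one.

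**Figure D3:**
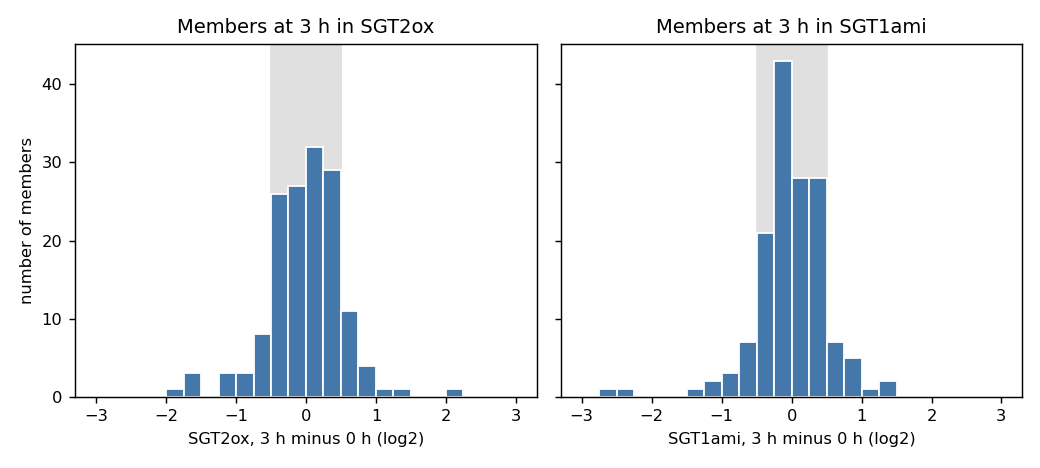
Histograms of the change between 0 h and 3 h for the 150 members, on the log2 scale of group means + 1, with SGT2ox on the left and SGT1ami on the right. The grey band is the window of 0.5 that the rule set in the wild types, and it holds 114 members in SGT2ox and 120 in SGT1ami.

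The largest changes at 3 h in a line were those of genes with few reads. In SGT2ox Solyc01g066260.2 rose at 3 h, with 49.7, 42.2 and 42.3 normalised reads, against 19.1, 8.43 and 3.48 at 0 h. The 3 h libraries lay above all 0 h libraries (log2 change 2.27, SE 0.41, adjusted p = 2.9e-05, limma). Its wild type libraries held 7.25, 22.2 and 7.41 at 3 h, against 8.09, 8.09 and 20.6 at 0 h, with full overlap. Solyc02g077290 measured 6.93, 4.69 and 7.04 at 3 h in SGT2ox, against 0, 4.22 and 1.74 at 0 h (log2 change 1.56, SE 0.61, adjusted p = 0.029, limma). This call ended without SGT2ox replicate 1 of 0 h (0.92, adjusted p = 0.21, limma), replicate 1 of 3 h (1.48, adjusted p = 0.068, limma) or replicate 3 of 3 h (1.47, adjusted p = 0.07, limma), and with edgeR (adjusted p = 0.082), DESeq2 (adjusted p = 0.1), library totals (adjusted p = 0.066, limma) or no filter (adjusted p = 0.06, limma).

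The falls in SGT2ox rested on counts as low. Solyc06g069740.1 measured 9.24, 4.69 and 0 normalised reads at 3 h, against 20.8, 21.9 and 17.4 at 0 h (log2 change -2.43, SE 0.56, adjusted p = 0.00041, limma). The libraries did not overlap, and the value was -3.13 without replicate 1 and -1.46 without replicate 3 of 3 h. Solyc03g094120 measured 0, 0 and 4.70 at 3 h, against 6.93, 5.06 and 6.95 at 0 h (log2 change -2.02, SE 0.52, adjusted p = 0.0013, limma), and -2.86 without replicate 3 of 3 h. Solyc02g077290 and Solyc03g094120 passed the filter of this experiment through 24 h libraries alone, which take no part in a comparison of 3 h with 0 h.

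In SGT1ami the falls at 3 h included the 2 members of highest score. Solyc04g064880 measured 8.34, 3.68 and 6.40 normalised reads at 3 h, against 39.4, 30.5 and 37.4 at 0 h (log2 change -2.41, SE 0.31, adjusted p = 8.2e-08, limma). Its 0 h libraries stood above those of the wild type, at 4.72, 5.57 and 8.78. Solyc01g109140 was at 0 in all 3 libraries of 3 h, against 7.88, 3.22 and 4.88 at 0 h (adjusted p = 4.2e-05, limma). With a floor of 3 reads over the group it was at least 5.8-fold lower, and it too passed the filter through 24 h libraries alone. Solyc01g005800 rose to 31.5, 35.0 and 35.7 at 3 h, against 18.9, 17.7 and 6.51 at 0 h (log2 change 1.31, SE 0.26, adjusted p = 6.5e-05, limma). Solyc07g063710 measured 10.2, 22.1 and 25.6 at 3 h, against 6.31, 12.9 and 1.63 at 0 h (log2 change 1.56, SE 0.40, adjusted p = 0.0012, limma). Here the groups overlapped, and the change was 0.92 without SGT1ami replicate 3 of 0 h.

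How did the lines stand beside their own wild types at 24 h? These differences use the libraries that chose the members and are given with no test. In SGT2ox the members' 24 h level had a median difference from wild type of 0.17 on the log2 scale, from -0.92 up, beside -0.00 over all genes. All 3 SGT2ox libraries lay above all 3 wild type libraries for 83 members and below them for 18, where 22.2% and 21.6% of genes tested did. In the libraries labelled SGT1ami the median difference was -0.11 (-0.91 to 0.49), beside -0.03 over all genes. All 3 of them lay above the wild type libraries for 22 members and below for 85, where 12.4% and 22.3% of genes tested did. The members were high at 24 h in these same wild type libraries by choice, so nothing is read from these counts. At 0 h the median differences were 0.01 in SGT2ox and 0.08 in SGT1ami.

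Member by member, the rise followed that of the wild type. The rise between 0 h and 24 h was larger than in wild type for 100 of 150 members in SGT2ox and for 37 in the SGT1ami set with its labelled 24 h libraries. It was larger by more than 0.5 on the log2 scale for 37 members and smaller by as much for 8 in SGT2ox, and for 8 and 28 in the SGT1ami set. The wild type rises behind these counts chose the members, and no share over all genes was taken. Nothing is therefore read from these counts. Across the 150 members, which are not replicates, Pearson's r between the line's rise and that of its wild type was 0.95 for SGT2ox and 0.96 for the SGT1ami set. The points of a pair share the experiment, and the wild type values were used in the choice. At 24 h SGT2ox held 74533, 74426 and 74604 normalised reads of Solyc03g117950, against 56746, 58093 and 59030 in its wild type. Of Solyc04g074480 it held 65910, 66214 and 64408, against 70696, 68637 and 71999 in its wild type. The first gene was higher and the second lower in SGT2ox, without overlap.

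**Figure D4:**
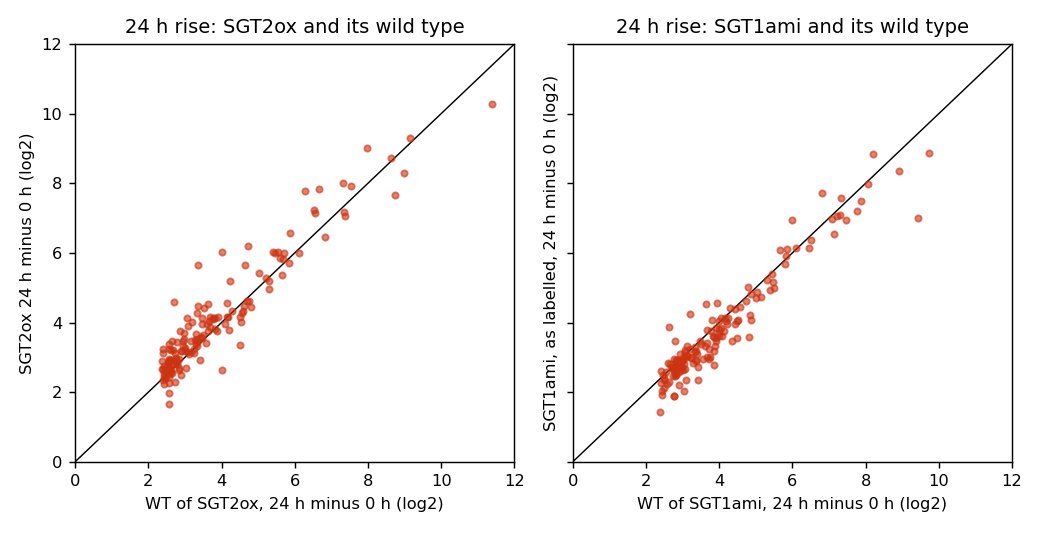
Each point is 1 of the 150 members, with the change between 0 h and 24 h in the wild type on the horizontal axis and in the line on the vertical axis, both as log2 of group means + 1. The black line marks equal changes. In the left panel 100 points lie above it for SGT2ox, and in the right panel 37 for the libraries labelled SGT1ami. Nothing is read from these counts, since the wild type rises chose the members.

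Did the members rise by different amounts in the 2 lines? Line and experiment cannot be told apart in this comparison, and the SGT1ami side rests on its labelled 24 h libraries. In a limma fit of all 36 libraries the 24 h change differed between the lines for 101 members, where 51.9% of genes tested were called. It was larger in SGT2ox for 60, where 25.6% of 22945 genes tested were called that way, and smaller for 41, where 26.2% were. The median difference was 0.19 (-3.89 to 3.43), beside -0.00 over all genes. At least 2-fold larger were 29 and at least 2-fold smaller 10, where 8.5% and 10.2% of genes tested were. With library totals the median of all genes moved by 0.33 and the calls split into 84 larger and 19 smaller, while the members' median relative to all genes was 0.21, against 0.19 with the deposited factors.

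Solyc08g006470 rose further in SGT2ox, with a log2 difference of 3.14 (SE 0.07, adjusted p = 7.1e-32, limma). It measured 47896, 45928 and 48840 normalised reads at 24 h in SGT2ox, against 588.5, 535.4 and 513.7 at 0 h. At that time those labelled SGT1ami held 72732, 72656 and 72686, against 7412, 7198 and 7425 in SGT1ami at 0 h. Most of the difference lay in the 0 h level, and the wild types showed the same, with means of 442.7 ± 11.5 and 8590 ± 178 at 0 h (SD, n = 3) in those of SGT2ox and SGT1ami. Solyc01g066260.2 also rose further in SGT2ox, with 391.2, 441.0 and 408.8 at 24 h against 19.1, 8.43 and 3.48 at 0 h. Those labelled SGT1ami held 456.4, 397.0 and 405.2 at 24 h, against 97.7, 111.7 and 98.4 in SGT1ami at 0 h (log2 difference 3.43, SE 0.46, adjusted p = 3.9e-08, limma). For this gene the 24 h levels of both lines overlapped and the 0 h levels did not.

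The largest differences the other way lay in the 24 h level. Solyc07g063710 measured 95.7, 115.8 and 113.9 normalised reads in SGT2ox at 24 h, against 10.4, 10.1 and 8.69 at 0 h. In the libraries labelled SGT1ami it measured 1019, 910.1 and 988.3, against 6.31, 12.9 and 1.63 in SGT1ami at 0 h (log2 difference -3.89, SE 0.78, adjusted p = 5.3e-05, limma). Without SGT1ami replicate 3 of 0 h the value was -3.25. Its wild types at 24 h averaged 206.4 ± 26.1 beside SGT2ox and 936.1 ± 31.4 beside SGT1ami (SD, n = 3). Solyc12g057140.1 measured 2844, 1873 and 2147 in SGT2ox at 24 h, against 299.0, 337.3 and 292.9 at 0 h. Those labelled SGT1ami held 7259, 8977 and 7431, against 298.7, 269.3 and 240.7 in SGT1ami at 0 h (log2 difference -2.00, SE 0.21, adjusted p = 1.7e-10, limma). The wild types differed the same way at 24 h, with 1726, 1995 and 2196 beside SGT2ox and 8493, 7974 and 8482 beside SGT1ami. Their rises from 0 h were 2.57 and 5.04 on the log2 scale. Both genes overlapped between the lines at 0 h and were separate at 24 h.

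**Figure D5:**
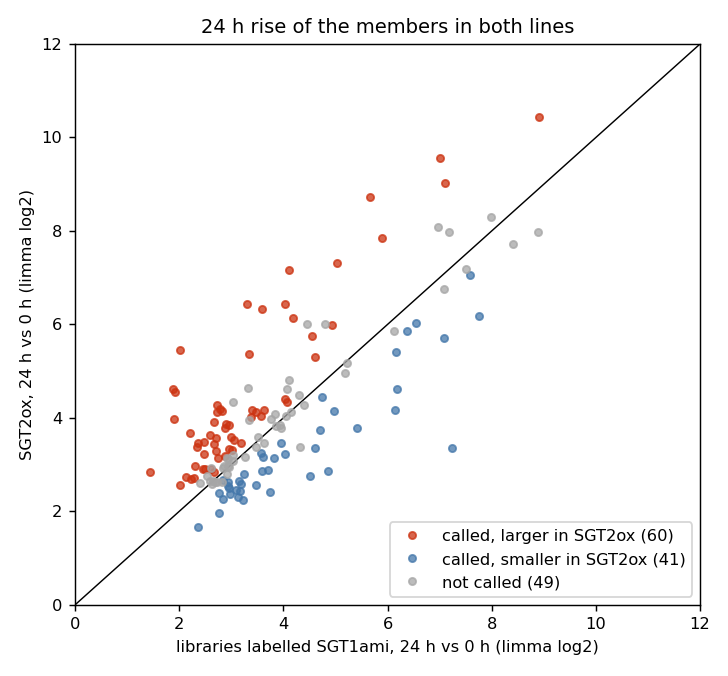
Each point is 1 of the 150 members, with the limma log2 change between 0 h and 24 h in the libraries labelled SGT1ami on the horizontal axis and in SGT2ox on the vertical axis. Colours mark the 60 members called larger in SGT2ox, the 41 called smaller and the 49 not called, and the black line marks equal changes.

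A lower starting level in the SGT2ox experiment was common among the members. At 0 h all 3 SGT2ox libraries lay below all 3 SGT1ami libraries for 110 of 150 members, where 38% of 22945 genes did, and above them for 8, where 35.6% did. The median difference at 0 h was -0.68 on the log2 scale, beside -0.02 over all genes. The wild type sets, which chose the members, had medians over members of 2141 and 4515 normalised reads at 24 h and of 165.7 and 295.5 at 0 h in the SGT2ox and SGT1ami experiments. Across the 150 members Pearson's r of the 24 h change was 0.78 between SGT2ox and the libraries labelled SGT1ami, and 0.82 between the wild types. What differed between the experiments besides the lines is not given in the labels, and its part in the result was not tested.

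For the 3 h change the members' count was near that of all genes. It differed between the lines for 76 of 150 members, where 51.0% of genes tested were called, and nothing is read from that count. Of these, 43 were more positive in SGT2ox, where 27.7% of genes tested were, and 33 more negative, where 23.3% were (limma, adjusted p under 0.05). With library totals the split was 33 and 46. Solyc04g064880 was more positive in SGT2ox by 3.08 (SE 0.64, adjusted p = 7.8e-05, limma), from 4.62, 2.34 and 2.35 normalised reads at 3 h against 3.47, 2.53 and 0 at 0 h, beside the fall in SGT1ami given above. Without SGT2ox replicate 3 of 0 h its value was 2.42. Solyc01g066260.2 was more positive by 2.31 (SE 0.46, adjusted p = 4.9e-05, limma), with 94.5, 94.8 and 108.9 at 3 h in SGT1ami against 97.7, 111.7 and 98.4 at 0 h. Solyc06g069740.1 was more negative in SGT2ox, by -3.08 (SE 0.63, adjusted p = 6.3e-05, limma), with 62.99, 77.3 and 53.1 at 3 h in SGT1ami against 41.0, 32.2 and 49.6 at 0 h. Its value was -3.78 without SGT2ox replicate 1 and -2.10 without replicate 3 of 3 h. Solyc07g063710 was more negative by -2.08 (SE 0.78, adjusted p = 0.024, limma). Its call was lost without SGT2ox replicate 2 of 3 h (-1.89, adjusted p = 0.058, limma), SGT1ami replicate 3 of 0 h (-1.44, adjusted p = 0.13, limma), replicate 2 of 3 h (-1.95, adjusted p = 0.053, limma) or replicate 3 of 3 h (-1.84, adjusted p = 0.066, limma), and with no filter (adjusted p = 0.053, limma).

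Members of low 0 h level rose furthest. Among the 100 members at 100 or more normalised reads at 0 h in a wild type, the median change to 24 h was 3.26 in SGT2ox and 2.94 in the libraries labelled SGT1ami. Among the 37 between 10 and 100 it was 4.33 and 4.21, among the 11 between 1 and 10 it was 5.66 and 4.43, and for the 2 under 1 it was 7.92 and 6.56. The 24 h minimum of 50 forces a large change on the lowest classes, so this order is partly set by the rule. The median coefficient of variation over members was lowest at 24 h, at 3.8% in SGT2ox and 2.6% in those labelled SGT1ami, against 9.27% and 6.07% at 0 h. The members were chosen to be high at 24 h, with median levels of 2296 and 4196 normalised reads, against 147.7 and 297.2 at 0 h. The part of read number in this spread was not tested.

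The members were spread over the genome as their identifiers number it. The identifiers name each of the 12 chromosomes, and the shares ran from 3.3% on chromosomes 5 and 11, which hold 6.6% of the 22399 genes tested each, to 18% on chromosome 1, which holds 12.7%. By running number, 6 pairs of members lay within 50 of each other on a chromosome. The same count was not made over all genes tested, so no clustering is read from these 6 pairs. One of these pairs, chosen after its values were seen, was Solyc09g011520 and Solyc09g011550, with r of 0.98 over the 36 libraries, whose 24 h rise they share. Whether such neighbours share reads through similar sequence was not examined. No 2 members held identical values in all libraries.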

How the data were processed

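Leaf poly(A) RNA of 36 libraries was analysed from 1 deposited table of 29285 genes. The deposited values are a signal, reads per gene that the authors scaled by library. The scaling was recovered from the values themselves, since 100% of them came within 0.01 of whole reads after 1 factor per library was taken out. Trimmomatic, STAR, featureCounts and DESeq2 were used, per the submitters' processing notes. Not given in the sources used here are the build, gene models and strand setting. Genes that overlap may therefore share reads. Of values of 2 to 11 reads 78.8% were even, so mates were mostly counted apart and counting intervals are too narrow. Intervals and floors cover counting error only.

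Sample titles gave the groups. The test was limma 3.58.1 (R 4.3.3) on log2(value + 1), with the trend option. Changes of genes with few reads are understated on that scale. Fits within an experiment used its 18 libraries, and differences between the lines on all 36. Genes that reached 10 in 3 or more libraries were tested, two-sided, with Benjamini-Hochberg adjustment over all genes tested and calls at 0.05. P-values measure the spread between the 3 libraries of a group, pooled over all groups of the fit, wild types included, and moderated over genes. The mean chi-square per gene between replicate libraries ran from 2.65 to 6.19 over 36 pairs. Mates counted apart raise this value by themselves, and the part left for differences between plants was not tested. Small p-values are therefore not read as covering the variation between plants. The test was tried on simulated counts first. Alternatives were TMM and library totals, pseudocounts of 0.5 and 5, other filters, other sets of libraries, a replicate block, each replicate left out, and the recovered reads tested with edgeR 4.0.16 and DESeq2 1.42.0.

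Genes were named by rule: the 2 of highest score, the 2 of highest 24 h mean, the 2 on each side of the threshold, and the 2 highest and 2 lowest members of each comparison of the lines. The members, lists and rules were chosen with earlier results of these data known. Preset lists by gene function and tissue could not be applied, because no identifier has a description.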

Additional observations from a re-analysis of the deposited data

Results flagged for a closer look

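These results differed between the 2 lines by a direct test of the difference (limma, adjusted p under 0.05). Line and experiment cannot be told apart in them, and the 24 h differences also rest on the libraries labelled SGT1ami at 24 h. The 24 h change differed for 101 of 150 members, where 51.9% of genes tested were called. This count includes members that passed the filter only through 24 h libraries, so nothing is read from it beside that share. The 3 h change differed for 76, where 51.0% of genes tested were called, a share near that of the members. For the 24 h change the log2 difference, SGT2ox minus SGT1ami, was 3.43 for Solyc01g066260.2, 3.14 for Solyc08g006470, -2.00 for Solyc12g057140.1 and -3.89 for Solyc07g063710. For the 3 h change it was 3.08 for Solyc04g064880, 2.31 for Solyc01g066260.2, -2.08 for Solyc07g063710 and -3.08 for Solyc06g069740.1. All of these 3 h differences lie in genes with under 50 normalised reads at 0 h in SGT2ox.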

How the results depend on the processing

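Membership depended on the settings of the rule. Of the 150 members, 87 stayed with a pseudocount of 5, 63 with a window of 0.25, 44 with a window of 1, where genes with larger rises enter, and 72 with library totals. Between 118 and 148 stayed under the other settings of the rule, and 134 to 149 without 1 wild type replicate. All 150 members were called higher at 24 h in SGT2ox and in the libraries labelled SGT1ami under each alternative and without any replicate. In the main fits against 0 h, 40.3% and 42.7% of genes tested were called higher. The 150 include the 16 and 8 members that passed the filter only through 24 h libraries. Nothing is therefore read from this count beside those shares. Calls at 3 h numbered 65 to 91 in SGT2ox and 71 to 96 in SGT1ami (76 to 82 and 76 to 84 without a replicate). The 65 were of 127 members tested, in the fit of only the groups compared. With library totals 16230 and 15125 of all genes were called in SGT2ox and SGT1ami, against 14519 and 13853 with the deposited factors. Differences between the lines numbered 98 to 110 at 24 h and 65 to 79 at 3 h (95 to 100 and 70 to 81 without a replicate). Shares over all genes are not given for each setting, so nothing is read from these ranges. Of the named values, 573 kept direction and side of the threshold and 12 lost the call, those of Solyc02g077290 and Solyc07g063710 given above. Replicate numbers do not pair the libraries (correlations of deviations from -0.023 to 0.02). With the replicate block 78 and 81 members were called at 3 h in SGT2ox and SGT1ami, and 101 and 77 for the differences. No share over all genes is given for that setting, and nothing is read from these counts either. Fitted changes of members with few reads at 0 h or 3 h depend on the pseudocount and are limited by depth. That of Solyc09g011520 between 0 h and 24 h in SGT2ox was 8.46 with a pseudocount of 5, 11.21 with 0.5, 11.43 by edgeR and 11.75 by DESeq2. That of Solyc01g109140 between 0 h and 3 h in SGT1ami was -1.02, -3.46, -5.51 and -4.98 under the same settings. A pseudocount of 5 also brought the 24 h change of Solyc04g064880 in SGT2ox to 8.12 and the 3 h change of Solyc06g069740.1 to -1.50.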

Other observations

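A list of 150 genes chosen by the same rule on the wild type of a single experiment shares no library with the other experiment. Chosen on the wild type of SGT1ami, it held 42 of the members. In the SGT2ox experiment these genes changed between 0 h and 24 h by a median of 5.42 in SGT2ox and 4.81 in its wild type on the log2 scale. At 3 h, however, 90 of them lay outside the window of 0.5 in SGT2ox and 99 in its wild type, with median changes of -0.10 and -0.29. Of all genes tested, 53.3% stayed within that window in SGT2ox. At 24 h their median difference between SGT2ox and its wild type was 0.25, with 45 genes above 0.5 and 16 below -0.5. At 0 h it was -0.05. Chosen on the wild type of SGT2ox, the list held 47 of the members, and its medians between 0 h and 24 h were 5.36 in the libraries labelled SGT1ami and 5.62 in their wild type. At 3 h 96 lay outside the window in SGT1ami and 92 in its wild type, with median changes of 0.32 and 0.20. Of all genes tested, 60.5% stayed within it in SGT1ami. At 24 h the median difference between the libraries labelled SGT1ami and their wild type was -0.14, with 5 genes above 0.5 and 10 below -0.5. These lists were made after the data were seen and are given as values with no test. No share over all genes was taken for the wild types at 3 h or for the differences at 24 h. Nothing is read from those counts.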
